A study of Homo sapiens with 60 samples.

Results

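NQO1 and 9 further enzymes that reduce, hydrolyse or prepare reactive small molecules for export were followed across herbal extracts in SW1783 cells, an established human astrocytoma line. The 10 genes were given by name and cover NQO1, the aldo-keto reductases AKR1B1, AKR1C1, AKR1C2 and AKR1C3, the carbonyl reductases CBR1 and CBR3, PTGR1, EPHX1 and UGDH. They are 10 of the 60675 genes in the deposited count table, and all 10 passed the filter on low counts among 17676 genes tested. RNA was sequenced after 24 h of treatment. For 6 ethanol extracts there were 3 libraries at each of 3 doses: Astragali Radix (astragalus root) at 8.8, 44 and 220 µg/mL, and Sibjeondaebo-tang, Palmul-tang, Samul-tang, Sagunja-tang (formulas of several herbs) and Cinnamomi Cortex (cinnamon bark) at 20, 100 and 500 µg/mL. Rehmanniae Radix Preparata, prepared Rehmannia root, had 1 library at each of these last 3 doses. Cells given only the DMSO vehicle had 3 libraries, labelled 0.1% DMSO on the samples and 2% in the text of the series. All groups used the same line, kept in Leibovitz's L-15 medium with fetal bovine serum. The 3 doses are called low, medium and high.

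NQO1 reduces quinones by a pair of electrons at once and so bypasses the reactive semiquinone. Aldo-keto and carbonyl reductases turn aldehydes and ketones, among them products of lipid oxidation, steroids and prostaglandins, into alcohols with NADPH. Many of these genes are textbook targets of NRF2, a transcription factor that the adaptor KEAP1 keeps low until electrophiles modify it and that binds antioxidant response elements. In astrocytes this programme is known as a source of antioxidant protection.

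AKR1C1, AKR1C2 and AKR1C3 lie side by side on chromosome 10 of GRCh38, at chr10:4963253-4983283 (plus strand), chr10:4987400-5018031 (minus strand) and chr10:5035354-5107686 (plus strand). They are near copies of each other, which bears on their counts below, so the first 120 coding bases of each are shown, from the GENCODE 29 transcripts on GRCh38. Capitals mark bases that differ from AKR1C1.
AKR1C1: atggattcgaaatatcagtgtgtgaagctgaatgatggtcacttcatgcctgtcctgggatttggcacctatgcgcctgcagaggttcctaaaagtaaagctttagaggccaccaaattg
AKR1C2: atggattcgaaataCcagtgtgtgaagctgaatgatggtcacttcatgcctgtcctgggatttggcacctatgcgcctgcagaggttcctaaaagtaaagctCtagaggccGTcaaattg
AKR1C3: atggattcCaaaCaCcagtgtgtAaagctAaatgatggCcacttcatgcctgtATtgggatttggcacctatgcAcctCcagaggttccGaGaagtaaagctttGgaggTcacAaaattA
AKR1C2 differed from AKR1C1 at 4 of these 120 bases and AKR1C3 at 16. Over the whole coding sequence of 969 bases, AKR1C1 and AKR1C2 were 98.0% identical and AKR1C1 and AKR1C3 91.4%. Reads came in pairs of 100 bases each, and 164 of the 870 coding windows of 100 bases were identical in AKR1C1 and AKR1C2, against 19 in AKR1C1 and AKR1C3. A window stands for a single read of a pair, so such counts do not give the share of read pairs that fit both genes. Over all annotated transcripts, 16.54% of the windows of AKR1C1 occurred in AKR1C2 and 22.135% of those of AKR1C2 in AKR1C1, while the 7 members outside the AKR1C group shared no window with any other gene. Windows were compared on the transcript strand only. Reads from shared stretches were divided among the AKR1C genes by an estimate, so the split between AKR1C1 and AKR1C2 is less certain than their sum. Expected counts were not whole in 59 of 60 libraries for NQO1, 60 for CBR3, 44 for CBR1 and 9 for UGDH, against 59 for AKR1C1. Some reads of these members were thus divided as well, and with which genes was not examined. AKR1B1, EPHX1 and PTGR1 had 0 such libraries.

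Each library summed to between 19793387 and 37152410 expected counts. Levels are CPM, counts divided by the TMM-scaled library size, and changes are log2 ratios ± SE from edgeR's quasi-likelihood test with n = 3 libraries per group and Benjamini-Hochberg adjustment over all genes. A gene was called where the adjusted p was below 0.05. The labels do not say that replicates were separate cultures, so the spread between libraries that a p measures may be technical. That spread was estimated over all groups of the fit together, so an SE does not give the spread of the groups compared alone. Vehicle libraries carry a label code that no extract library shares, and extract and code cannot be told apart in comparisons with the vehicle. Astragali Radix and Cinnamomi Cortex share a code, as do Sagunja-tang and Samul-tang, and Palmul-tang and Sibjeondaebo-tang. Extract and code thus cannot be told apart either where Palmul-tang is compared with Sagunja-tang or Samul-tang. The same holds for Sibjeondaebo-tang against Cinnamomi Cortex. Dose comparisons within an extract use no vehicle library and stay within a code. The SD over genes of a library's log2 deviations was 1.07, 1.07 and 1.05 in the high dose of Astragali Radix, where the 3 libraries deviated alike, 0.638, 0.867 and 0.284 in replicates 1, 2 and 3 of its low dose, and at most 0.394 in all other libraries. Replicates 1 and 2 of the low dose thus stood apart from replicate 3, and the common spread includes them. Counts that move by over 1.5 times without these 2 libraries are given both ways. In that fit the low dose of Astragali Radix is replicate 3 alone (n = 1), which is assumed to vary like the other groups. Among astrocyte and glioma markers, VIM (median 4340 CPM), CD44 (2660 CPM), GJA1 (248 CPM) and SOX9 (64.9 CPM) were present, while GFAP and S100B had medians of 0.0796 and 0.0784 CPM, and ALDH1L1, AQP4, SOX2 and PTPRZ1 had medians of 0. Summed over the 14 listed markers, the level was 6470 to 11800 CPM over the groups. Of the leukocyte markers PTPRC had a median of 9.66 CPM and CD68 of 165 CPM, while AIF1 and CD3E had medians of 0. The summed leukocyte markers had 259 to 275 CPM at the high dose of Astragali Radix, 190 to 213 CPM at that of Sibjeondaebo-tang and 194 to 213 CPM in the vehicle, and the epithelial markers, mostly KRT18, 98.9 to 134 CPM, 93.6 to 113 CPM and 192 to 194 CPM. Neuron markers had 108 to 131 CPM, 139 to 152 CPM and 165 to 176 CPM in these 3 groups, and endothelial and mural markers 63.2 to 67.2 CPM, 84.7 to 90.6 CPM and 86.3 to 90.9 CPM. Mitochondrial genes took 1.38 to 7.181% of counts in extract libraries, lowest in Astragali Radix low replicate 2, and 7.554 to 8.036% in the vehicle. The part of markers and mitochondrial share in the results was not tested. In such bulk samples fewer cells of a type and less RNA per cell cannot be told apart.

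**Figure D1:**
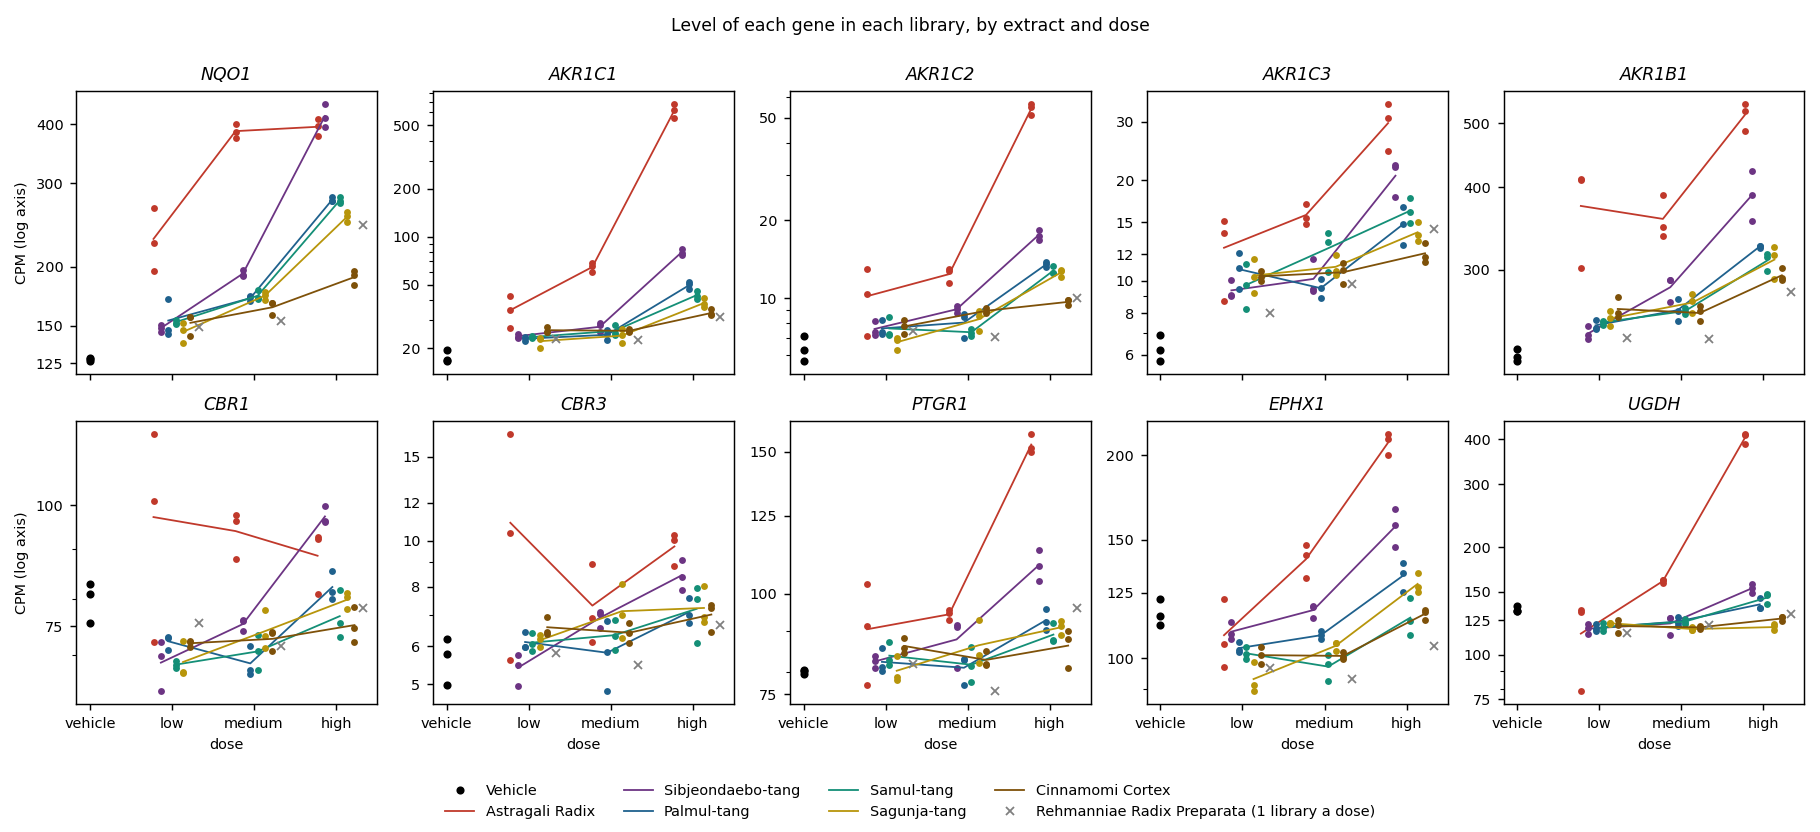
CPM of each gene (vertical log axes, each with its own range) against dose for the vehicle and 7 extracts. Points are libraries, lines join means of 3 libraries, and crosses are single Rehmanniae Radix Preparata libraries. NQO1 levelled at 374.4 to 410.3 CPM over the upper doses of Astragali Radix, whereas AKR1C1 went on to 555.8 to 677.8 CPM.

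NQO1, AKR1C1 and AKR1C3 were called higher than the vehicle in all 18 comparisons, every extract at every dose, in the fit of all libraries. In fits of only the groups compared all 3 lost their call at the low dose of Astragali Radix and kept it in the 17 other comparisons. AKR1B1 and AKR1C2 were called at every high dose, whereas CBR1 and UGDH were each called at 1 high dose of 6. At the high dose, 9 of 10 members rose with Astragali Radix, 9 with Sibjeondaebo-tang, 7 with Palmul-tang, 5 with Samul-tang, 6 with Sagunja-tang and 5 with Cinnamomi Cortex, and 0 were called lower. Of all genes tested, 32.6%, 11.2%, 10%, 9.37%, 11.2% and 7.7% were called higher in these 6 comparisons, listed in the same order, and 35.6%, 11.9%, 10.2%, 10.3%, 11.6% and 8.56% lower. UGDH was called lower under some alternatives: with Sagunja-tang (-0.16) without the 2 Astragali Radix low libraries that stood apart, where 8 members were higher (20.3% and 18.9% of all genes higher and lower), with Sagunja-tang under length and GC splines, and with Sagunja-tang and Cinnamomi Cortex in fits of only the groups compared. The median log2 change of the members was 1.40 with Astragali Radix, 0.69 with Sibjeondaebo-tang, 0.44 with Palmul-tang, 0.41 with Samul-tang, 0.42 with Sagunja-tang and 0.35 with Cinnamomi Cortex. Over all genes the medians lay between -0.06 and 0.01. Without the 2 Astragali Radix low libraries that stood apart, Samul-tang had 8 members higher, with 18.8% of all genes called higher. Calls at the low doses were less secure: that of NQO1 with Sagunja-tang was lost in 5 of 6 fits that left out 1 library, that of AKR1C1 with Sagunja-tang in 4 of 6, and those of NQO1 and AKR1C3 with Sibjeondaebo-tang in 2 of 6 each. NQO1 and AKR1C1 with Palmul-tang each lost their call in 1 of 6. AKR1C3 with Astragali Radix at the low dose had an adjusted p of 0.0831 by edgeR without replicates 1 and 2.

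**Figure D2:**
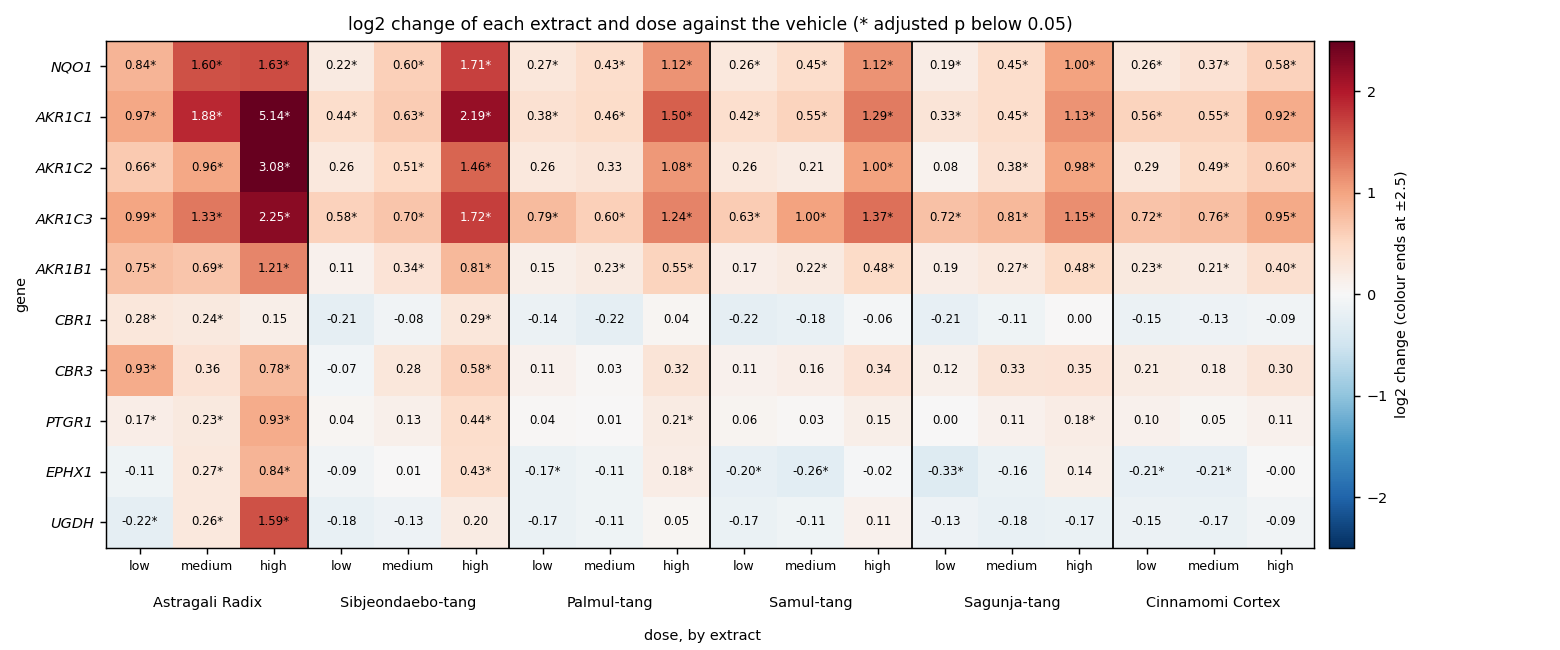
log2 change of each member (rows) at each dose of each extract (columns) against the vehicle, with a star where the adjusted p was below 0.05 (edgeR, n = 3 libraries per group). The colour ends at 2.5, which AKR1C1 (5.14) and AKR1C2 (3.08) passed at the high dose of Astragali Radix, and the upper 5 rows are higher throughout while EPHX1, UGDH and CBR1 lie below 0 at most low doses.

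NQO1 (ENSG00000181019, chr16:69706996-69726951, minus strand) had 128.1, 127.7 and 126.4 CPM in vehicle cells. With Astragali Radix it had 266.6, 224.0 and 196.3 CPM at the low dose, 384.2, 400.9 and 374.4 CPM at the medium dose and 376.9, 410.3 and 397.1 CPM at the high dose. Every Astragali Radix library lay above every vehicle library, and the medium and high doses overlapped. The log2 change against the vehicle was 0.84 ± 0.06, 1.60 ± 0.06 and 1.63 ± 0.06 at these doses, with an edgeR adjusted p of 1.33e-13 for the smallest, the low dose, which was not called in a fit of only the groups compared. High against medium dose gave 0.03 ± 0.06 with an edgeR adjusted p of 0.674.

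With Sibjeondaebo-tang, whose recipe holds Palmul-tang, Cinnamomi Cortex and Astragali Radix, NQO1 had 150.8, 148.7 and 145.8 CPM at the low dose, 192.6, 196.7 and 191.1 CPM at the medium dose and 412.3, 394.5 and 440.9 CPM at the high dose. The 3 doses did not overlap, and the log2 change was 0.38 ± 0.06 over the lower step and 1.10 ± 0.06 over the upper one, a difference between steps that was not tested. Ordered by group mean, Sibjeondaebo-tang high (415.9 ± 23.4 CPM, SD, n = 3) came first, then Astragali Radix high (394.8 ± 16.8 CPM) and Astragali Radix medium (386.5 ± 13.4 CPM), and the ranges of each neighbouring pair overlapped. A gap followed down to Palmul-tang high (277.2 ± 2.84 CPM) and Samul-tang high (276.1 ± 4.2 CPM), which overlapped, and then Sagunja-tang high (255.0 ± 6.27 CPM), below both. Astragali Radix low (229.0 ± 35.4 CPM) overlapped its neighbours on both sides, and Sibjeondaebo-tang medium (193.5 ± 2.9 CPM) overlapped Cinnamomi Cortex high (190.2 ± 6.62 CPM). The medium doses of Sagunja-tang (173.9 CPM), Samul-tang (173.7 CPM) and Palmul-tang (171.7 CPM) overlapped in turn and lay above Cinnamomi Cortex medium (164.3 CPM). The low doses of Palmul-tang (154.0 CPM), Samul-tang (152.8 CPM), Cinnamomi Cortex (152.3 CPM), Sibjeondaebo-tang (148.4 CPM) and Sagunja-tang (145.7 CPM) overlapped from neighbour to neighbour, and all lay above the vehicle (127.4 ± 0.889 CPM).

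AKR1C1, which inactivates progesterone by reduction, had 16.57, 16.8 and 19.36 CPM in vehicle cells. Its levels with Astragali Radix were 34.82, 42.29 and 26.7 CPM at the low dose, 65.8, 67.89 and 60.01 CPM at the medium dose and 555.8, 625.2 and 677.8 CPM at the high dose. No library of these 4 groups overlapped another group. The log2 change at the high dose, 5.14 ± 0.11 (edgeR adjusted p 4.65e-37), was the largest of any member in any comparison with the vehicle. Between the medium and the high dose AKR1C1 rose by 3.26 ± 0.09 on the log2 scale, across the interval in which NQO1 was not called. At the high doses of the other extracts AKR1C1 had 76.44, 79.53 and 84.03 CPM with Sibjeondaebo-tang, 50.14, 46.66 and 52.13 CPM with Palmul-tang, 42.56, 40.5 and 45.78 CPM with Samul-tang, 41.23, 36.22 and 37.61 CPM with Sagunja-tang and 32.61, 32.06 and 35.02 CPM with Cinnamomi Cortex. Samul-tang and Sagunja-tang overlapped there and the other neighbours in this order did not.

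AKR1C2, which reduces dihydrotestosterone, had 51.03, 54.85 and 56.4 CPM at the high dose of Astragali Radix, 17.44, 16.82 and 18.41 CPM at that of Sibjeondaebo-tang, and 5.702, 7.115 and 6.283 CPM in vehicle cells. The log2 changes were 3.08 ± 0.11 and 1.46 ± 0.11. AKR1C3, which forms testosterone and prostaglandin F, had 33.89, 30.81 and 24.44 CPM at the high dose of Astragali Radix, 17.78, 21.91 and 22.3 CPM at that of Sibjeondaebo-tang, and 5.744, 6.206 and 6.885 CPM in vehicle cells. Its log2 changes were 2.25 ± 0.14 and 1.72 ± 0.14. In both genes the libraries of these doses lay above all vehicle libraries. The 4 other high doses raised AKR1C2 by 0.60 to 1.08 and AKR1C3 by 0.95 to 1.37 on the log2 scale, all called.

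The sum of the 3 AKR1C genes, which does not depend on how reads were divided among them, had 640.8, 710.8 and 758.6 CPM at the high dose of Astragali Radix, against 28.02, 30.12 and 32.53 CPM in vehicle cells. It rose 23.3-fold (log2 4.54, edgeR adjusted p 5.18e-36), and 3.91-fold with Sibjeondaebo-tang at the high dose. Palmul-tang, Samul-tang, Sagunja-tang and Cinnamomi Cortex at the high dose raised it 2.58-, 2.38-, 2.15- and 1.82-fold. AKR1C1 made up 88% of the sum at the high dose of Astragali Radix (86.7 to 89.3% over libraries), 67.7% with Sibjeondaebo-tang and 63.7% with Palmul-tang, against 58.1% in vehicle cells (55.8 to 59.5%). At that dose of Astragali Radix AKR1C2 made up 7.7%, against 21.1% in vehicle cells. In all 6 high doses the sum was called higher than the vehicle under every alternative run.

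**Figure D3:**
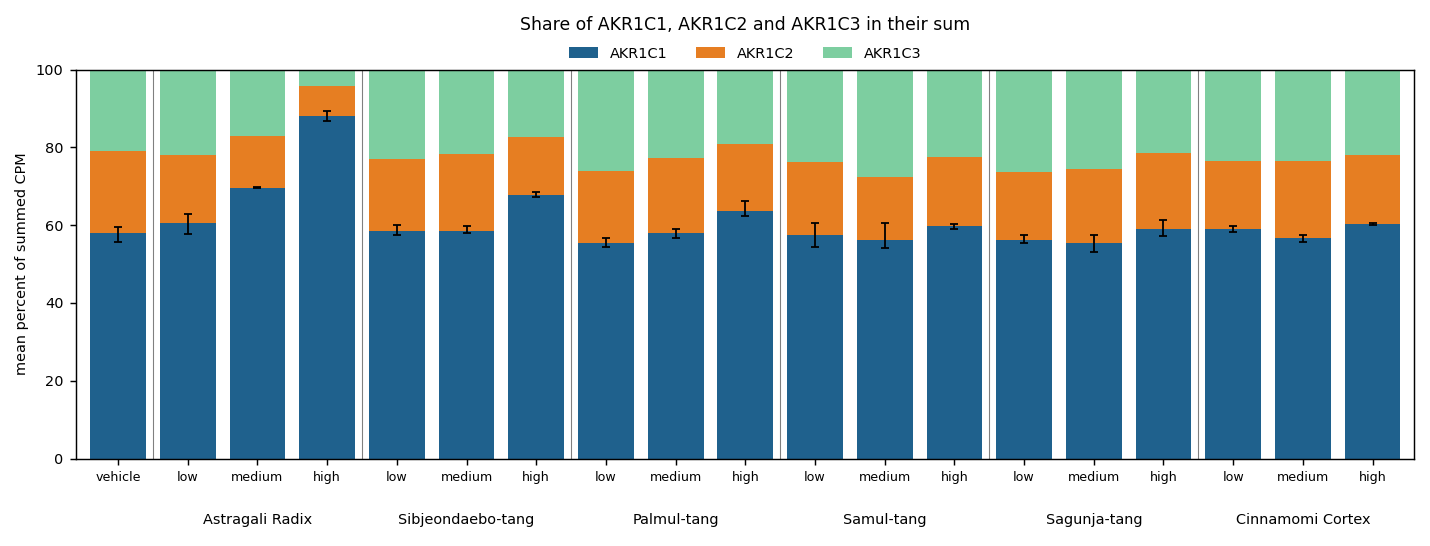
Mean share of AKR1C1, AKR1C2 and AKR1C3 in their summed CPM for the vehicle and 18 extract groups of 3 libraries, in percent from 0 to 100. Black bars give the lowest and highest library for AKR1C1, whose share was 88% at the high dose of Astragali Radix and 58.1% in the vehicle.

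AKR1B1, aldose reductase, which turns glucose into sorbitol and also clears aldehydes, was the member with the most reads per length in vehicle cells, at 360 CPM per kilobase of its median annotated transcript. UGDH (231), NQO1 (138), EPHX1 (91.4), CBR1 (78) and PTGR1 (66.8 CPM per kilobase) followed, and AKR1C1 (20.5), AKR1C2 (9.47), AKR1C3 (7.31) and CBR3 (4.84 CPM per kilobase) were lowest. This order depends on the length used. The median was 580.5 bases for UGDH, 618.5 for AKR1B1 and 672.5 for AKR1C2, whose coding sequence alone has 969 bases. AKR1B1 had 534.9, 522.7 and 487.6 CPM at the high dose of Astragali Radix, 389.5, 356.1 and 424.1 CPM at that of Sibjeondaebo-tang, and 218.3, 227.5 and 221.8 CPM in vehicle cells. These groups did not overlap. The log2 changes were 1.21 ± 0.07 and 0.81 ± 0.07, and between 0.40 and 0.55 at the 4 other high doses, all called.

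The carbonyl reductases moved less. CBR1, which reduces quinones, prostaglandins and anthracyclines, had 96.09, 96.2 and 99.71 CPM at the high dose of Sibjeondaebo-tang, against 80.99, 82.93 and 75.56 CPM in vehicle cells, a rise of 0.29 ± 0.08 (edgeR adjusted p 0.00745). With Astragali Radix at the high dose it had 92.21, 92.78 and 80.97 CPM, which overlapped the vehicle, and the log2 change of 0.15 ± 0.08 was not called (edgeR adjusted p 0.0948). Without the 2 Astragali Radix low libraries that stood apart, the same change had an adjusted p of 0.00568. CBR3, a close relative of CBR1 with narrower activity, had 10.26, 10.05 and 8.866 CPM at the high dose of Astragali Radix, 8.398, 7.888 and 9.097 CPM at that of Sibjeondaebo-tang, and 5.785, 6.206 and 4.992 CPM in vehicle cells. Both doses lay above the vehicle, with log2 changes of 0.78 ± 0.18 and 0.58 ± 0.18, and the second lost its call in 2 of 6 fits that left out 1 library. Genes on the opposite strand overlap CBR1 (SETD4, mean count 365.383, against 2181 for CBR1) and CBR3 (CBR3-AS1, mean count 69.749, against 193.5 for CBR3). The strand setting of the counting is not given in the sources used here, so reads from these partners cannot be told apart. The partners of NQO1 (AC092115.2), UGDH (UGDH-AS1) and PTGR1 (ZNF483) had mean counts of 45.312, 35.462 and 38.217, against 6075.4 for NQO1, 3863.7 for UGDH and 2506.7 for PTGR1.

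PTGR1, which reduces oxidised prostaglandins, leukotrienes and alkenals, had 149.9, 157.8 and 151.6 CPM at the high dose of Astragali Radix, 108.3, 103.7 and 113.3 CPM at that of Sibjeondaebo-tang, and 80.53, 79.53 and 80.3 CPM in vehicle cells. The groups stood apart, with log2 changes of 0.93 ± 0.06 and 0.44 ± 0.06. It was also called higher at the high doses of Palmul-tang (0.21 ± 0.06) and Sagunja-tang (0.18 ± 0.06), and the call with Sagunja-tang was lost in 2 of 6 fits that left out 1 library. EPHX1, microsomal epoxide hydrolase, had 215.2, 211.6 and 200.0 CPM at the high dose of Astragali Radix, 166.6, 146.4 and 157.9 CPM at that of Sibjeondaebo-tang, and 122.5, 111.9 and 115.7 CPM in vehicle cells. It rose by 0.84 ± 0.06 and 0.43 ± 0.06 on the log2 scale. TMEM63A overlaps EPHX1 on the opposite strand, with a mean count of 1132.683 against 3276 for EPHX1.

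UGDH, which makes UDP-glucuronic acid for glucuronidation, had 132.1, 137.2 and 132.6 CPM in vehicle cells. With Astragali Radix it had 133.3, 79.1 and 131.3 CPM at the low dose of Astragali Radix, 161.5, 161.7 and 158.8 CPM at the medium dose and 411.0, 414.5 and 387.6 CPM at the high dose. The high dose lay far above all other libraries of the series, at 1.59 ± 0.08 log2 over the vehicle, while replicate 2 of the low dose lay below all other libraries. With Sibjeondaebo-tang at the high dose UGDH had 153.4, 158.1 and 149.2 CPM, above all vehicle libraries, but the log2 change of 0.20 ± 0.08 was not called in the fit of all libraries (edgeR adjusted p 0.0786). Without the 2 libraries that stood apart its adjusted p was 8.01e-06.

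EPHX1 was the only member called lower than the vehicle with extracts other than Astragali Radix in the fit of all libraries. At the low dose it had 98.83, 89.36 and 91.17 CPM with Sagunja-tang, against 122.5, 111.9 and 115.7 CPM in vehicle cells, which did not overlap. The log2 changes at the low dose were -0.33 ± 0.06 with Sagunja-tang, -0.21 with Cinnamomi Cortex, -0.20 with Samul-tang and -0.17 with Palmul-tang, and the calls were lost in 0, 2, 3 and 6 of the 6 fits that left out 1 library for these extracts in turn. At the high doses of the same 4 extracts the changes were 0.14 with Sagunja-tang, -0.004 with Cinnamomi Cortex, -0.02 with Samul-tang and 0.18 with Palmul-tang, of which the value with Palmul-tang was called, in 3 of 6 such fits.

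At the low dose, members were called higher and lower in the fit of all libraries as follows. Astragali Radix had 8 higher and 1 lower, with 21.6% and 19.2% of all genes called higher and lower. Cinnamomi Cortex had 4 and 1 (6.13% and 7.12% of all genes), Sagunja-tang 3 and 1 (6.03% and 8.03%), Samul-tang 3 and 1 (4.96% and 6.37%), Palmul-tang 3 and 1 (4.27% and 5.57%) and Sibjeondaebo-tang 3 and 0 (4.15% and 5.47%). With its low dose reduced to replicate 3, which is assumed to vary like the other groups, Astragali Radix had 3 higher calls (NQO1, AKR1B1 and AKR1C1) and no lower one, with 8.38% of all genes called higher. With replicate 3 alone, its values for CBR1 (-0.13), CBR3 (-0.002) and PTGR1 (-0.041) reversed and were not called. The fit of all libraries had called these genes higher. In a fit of only the groups compared, with all 3 replicates, Astragali Radix had 0 calls. The fit without the 2 libraries that stood apart gave 5 higher and 3 lower members with Cinnamomi Cortex (15.2% and 14.3% of all genes). It gave the same counts with Samul-tang (14.4% and 13.4%) and with Palmul-tang (13% and 12.9%). It gave 4 and 3 with Sagunja-tang (15.7% and 15.4%) and 4 and 2 with Sibjeondaebo-tang (12.6% and 13.1%). Leaving out vehicle replicate 1 gave 3 calls instead of 5 with Cinnamomi Cortex and 2 instead of 4 with Sagunja-tang and Palmul-tang, and so did Cinnamomi Cortex low replicate 3, vehicle replicate 2 and Sagunja-tang low replicates 1 and 2 for Sagunja-tang, and Palmul-tang low replicate 2, each for its own extract.

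At the medium dose 9 members were called higher with Astragali Radix (7.75% of all genes), 5 with Sibjeondaebo-tang (2.31%), 4 with Palmul-tang (4.44%), 4 with Samul-tang (5.19%), 5 with Sagunja-tang (6.16%) and 5 with Cinnamomi Cortex (5.86%). With Astragali Radix UGDH (0.26 ± 0.08) and CBR1 (0.24 ± 0.08) lost their calls in 4 of 6 fits that left out 1 library. EPHX1 was called lower with Samul-tang (6.88% of all genes lower) and Cinnamomi Cortex (7.17%). Without the 2 libraries that stood apart, Palmul-tang had 5 higher and 2 lower (13.3% and 13.0% of all genes), Samul-tang 5 and 3 (14.9% and 13.9%), Sagunja-tang 7 and 2 (15.9% and 14.8%), Cinnamomi Cortex 5 and 3 (15.5% and 14.3%) and Sibjeondaebo-tang 6 and 1 (10.4% and 9.77%). UGDH was among the lower members in all 5.

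The dose trend, high against low dose divided by the 2 steps, sets libraries of the same extract against each other. With Sibjeondaebo-tang all 10 members rose, where 10.6% of all genes were called higher. AKR1C1 had 76.44, 79.53 and 84.03 CPM at the high dose, against 23.25, 23.47 and 24.66 CPM at the low dose, a trend of 0.88 ± 0.05 log2 per 5-fold step of dose. NQO1 followed with 0.74 ± 0.03, AKR1C2 with 0.60 ± 0.05 and AKR1C3 with 0.57 ± 0.07, and the 6 other trends were between 0.19 (UGDH) and 0.35 (AKR1B1). With Astragali Radix 8 members rose (31.3% of all genes), led by AKR1C1 (2.08 ± 0.05), AKR1C2 (1.21 ± 0.05) and UGDH (0.91 ± 0.04). CBR1 (-0.07) and CBR3 (-0.07) were not called, and without the low-dose replicates 1 and 2 they reversed to 0.14 and 0.39 and were called, with the low dose resting on replicate 3 alone and the spread taken from the other groups.

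In the 3 formulas without Astragali Radix and in Cinnamomi Cortex, NQO1 was the member called in every trend. It rose by 0.42 ± 0.03 per step with Palmul-tang, 0.43 ± 0.03 with Samul-tang, 0.40 ± 0.03 with Sagunja-tang and 0.16 ± 0.03 with Cinnamomi Cortex, where its edgeR adjusted p was 0.00267. Members called higher were 5 with Palmul-tang (1.92% of all genes), 5 with Samul-tang (0.747%), 5 with Sagunja-tang (2.06%) and only NQO1 with Cinnamomi Cortex (0.243%). Leaving out the libraries that stood apart, the counts were 9 with Palmul-tang (6.24% of all genes), 8 with Samul-tang (2.78%), 8 with Sagunja-tang (6.3%) and 5 with Cinnamomi Cortex (1.65%). AKR1C1 rose by 0.56 ± 0.05 with Palmul-tang, 0.43 ± 0.05 with Samul-tang and 0.40 ± 0.05 with Sagunja-tang. EPHX1 rose by 0.23 ± 0.03 with Sagunja-tang and 0.18 ± 0.03 with Palmul-tang. The sum of the AKR1C genes rose by 0.46 per step with Palmul-tang, 0.41 with Samul-tang and 0.36 with Sagunja-tang, and with Cinnamomi Cortex its trend of 0.16 was not called (edgeR adjusted p 0.124) in the fit of all libraries but was by DESeq2 and without the 2 libraries that stood apart.

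In the 4 formulas more members were called over the upper dose step than over the lower one. From medium to high, 9 members rose with Sibjeondaebo-tang (2.45% of all genes), 6 with Palmul-tang (1.27%), 4 with Samul-tang (0.339%) and 4 with Sagunja-tang (0.764%). NQO1 and the 3 AKR1C genes were among the members called with Sibjeondaebo-tang and Palmul-tang, and NQO1, AKR1C1, AKR1C2 and EPHX1 were those called with Samul-tang and Sagunja-tang. Samul-tang had 7 members higher (1.36% of all genes) without the 2 libraries that stood apart. From low to medium, only NQO1 with Sibjeondaebo-tang was called (0.38 ± 0.06, with 0.124% of all genes higher), and 2 members were called without those libraries (2.49%). With Palmul-tang, Samul-tang, Sagunja-tang and Cinnamomi Cortex edgeR called 0 members over the lower step, where 0%, 0.00566%, 0% and 0.00566% of all genes were called higher. DESeq2 also called 0 in each, and 1, 2, 3 and 0 members had an unadjusted p below 0.05. Without the 2 libraries that stood apart, 1 member was called with Sagunja-tang (0.0327% of all genes). Cinnamomi Cortex had 0 members called over the upper step by edgeR (0.0735% of all genes), with 4 at an unadjusted p below 0.05, 1 by DESeq2, and 4 without those libraries (0.626%).

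The order of the members differed between the steps with Astragali Radix. From low to medium, NQO1 (0.76 ± 0.06) and AKR1C1 (0.90 ± 0.09) rose, with 6 members called higher and CBR3 lower (18.9% and 22.5% of all genes). With length and GC splines 4 members were called over this step, and 0 in a fit of only the groups compared. From medium to high 8 members rose (32.6% of all genes), AKR1C1 by 3.26, AKR1C2 by 2.13 ± 0.10, UGDH by 1.33 ± 0.08 and AKR1C3 by 0.92 ± 0.13, while NQO1 (0.03) and CBR1 (-0.08) were not called. With the low dose reduced to replicate 3, and the spread taken from the other groups, the lower step had 9 members higher (2.64% of all genes): AKR1B1, CBR1 and CBR3 then had 0.24, 0.38 and 0.37 in place of values below 0, and CBR3 was not called.

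**Figure D4:**
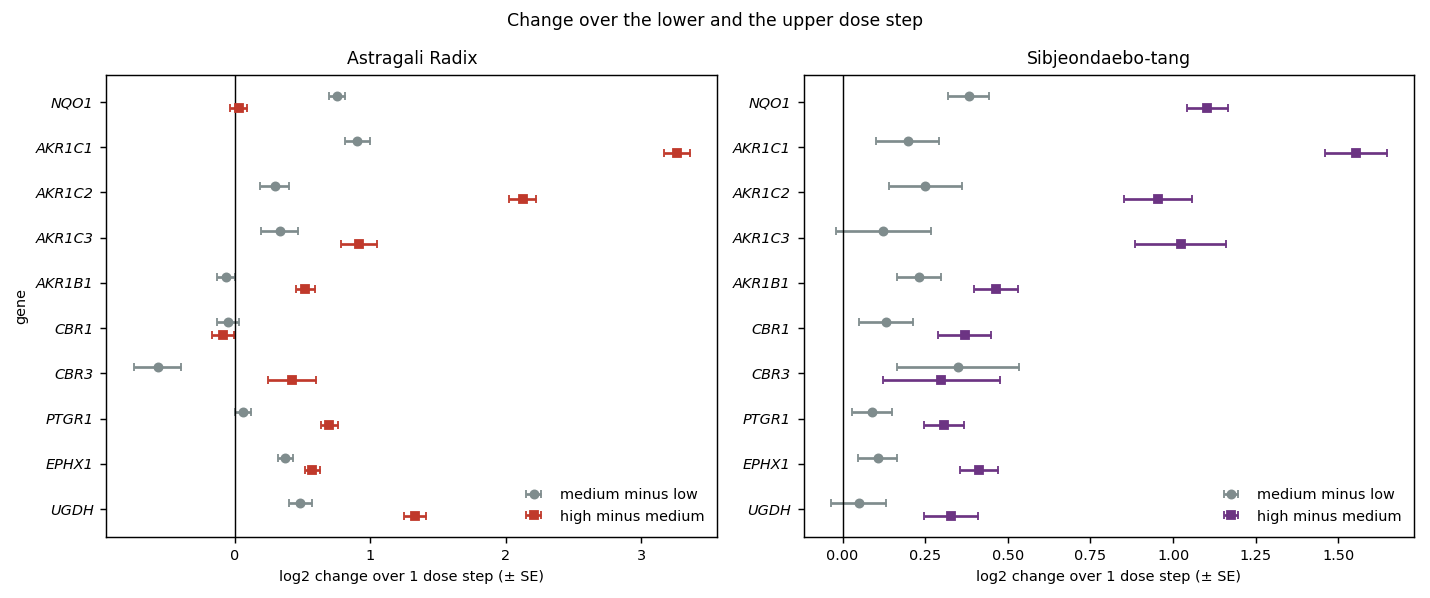
log2 change ± SE of each member over the lower dose step (circles) and the upper dose step (squares), with Astragali Radix at the left and Sibjeondaebo-tang at the right, n = 3 libraries per dose, on separate horizontal axes. NQO1 gave 0.03 over the upper step of Astragali Radix, where AKR1C1 gave 3.26, and with Sibjeondaebo-tang they gave 1.10 and 1.55 over that step.

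Palmul-tang is made of the herbs of Samul-tang together with those of Sagunja-tang. At the same high dose, Sibjeondaebo-tang exceeded Palmul-tang in 7 members, and 1.75% of all genes were called higher. AKR1C1 was 0.69 ± 0.09 higher, NQO1 0.58 ± 0.06 higher, AKR1C3 0.49 ± 0.13, AKR1C2 0.38 ± 0.10, AKR1B1 0.26 ± 0.07, EPHX1 0.24 ± 0.06 and PTGR1 0.23 ± 0.06. All 3 libraries of Sibjeondaebo-tang lay above all 3 of Palmul-tang in each of the 10 members. How often this held over all genes was not counted. The count fell to 2 members (NQO1 and AKR1C1 stayed called in all 6 fits) without Palmul-tang high replicate 2 and to 3 without Sibjeondaebo-tang high replicate 3. The dose trend of Sibjeondaebo-tang was steeper than that of Palmul-tang for NQO1 (0.32 ± 0.04) and AKR1C1 (0.32 ± 0.07), where 0.238% of all genes were called steeper upward, and 9 members were called without the 2 libraries that stood apart (8.07%).

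Palmul-tang at the high dose exceeded Sagunja-tang in AKR1C1 by 0.37 ± 0.09 (edgeR adjusted p 0.0242) and in no other member (0.39% of all genes higher). That call was lost without Sagunja-tang high replicate 2 or 3 or Palmul-tang high replicate 1 or 3, and 2 members were called without the 2 libraries that stood apart (2.41%). Against Samul-tang, Palmul-tang gave 0 calls by edgeR (0.916% of all genes higher), with 2 members at an unadjusted p below 0.05, 1 by DESeq2, 1 without Samul-tang high replicate 3 or Palmul-tang high replicate 2, and 2 without the 2 libraries that stood apart (4.28%). The NQO1 difference was 0.01 ± 0.06. Sagunja-tang had less UGDH than Samul-tang, at 121.5, 120.0 and 117.0 CPM against 146.8, 148.2 and 138.4 CPM, which did not overlap, with a log2 difference of -0.27 ± 0.08 (edgeR adjusted p 0.041, 2.23% of all genes lower). It was the only member called in that pair, and it lost its call in 6 of 6 fits that left out 1 library, but had an adjusted p of 7.66e-08 without the 2 libraries that stood apart, which gave 1 member higher and 2 lower (7.2% and 8.41% of all genes).

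The dose trends of Palmul-tang and Sagunja-tang, Palmul-tang and Samul-tang, and Sagunja-tang and Samul-tang differed in 0 members by edgeR (0.238%, 0.124% and 1.23% of all genes in either direction). At an unadjusted p below 0.05 there were 2, 1 and 2 members, and DESeq2 called 0, 0 and 1. Without the 2 libraries that stood apart 1, 0 and 2 were called (1.32%, 1.79% and 6.37%), and leaving out Sagunja-tang low replicate 1 or Samul-tang high replicate 3 gave 1 in the last pair. Sibjeondaebo-tang exceeded Cinnamomi Cortex at the high dose in 9 members, all but CBR3 (6.21% of all genes higher), by 1.27 ± 0.09 in AKR1C1 and 1.13 ± 0.06 in NQO1, and its trend was steeper in 8 (2.94%). Astragali Radix was given at lower doses per volume, and its values stand beside those of the formulas without a comparison.

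**Figure D5:**
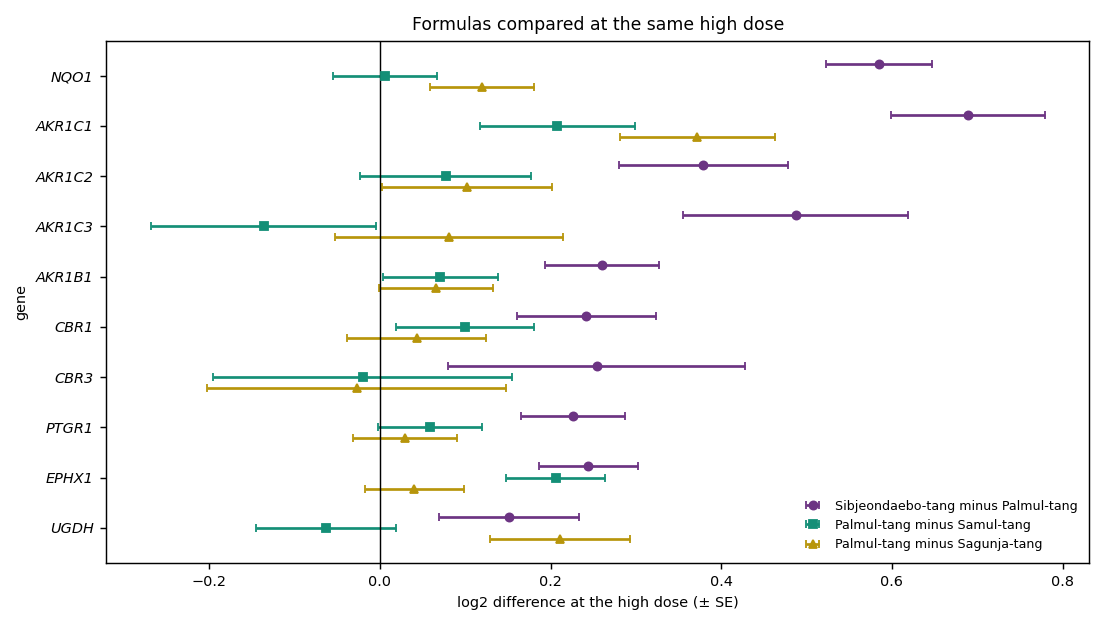
log2 difference ± SE of each member between formulas at the high dose of 500 µg/mL, n = 3 libraries per formula. All 10 differences of Sibjeondaebo-tang minus Palmul-tang lie above 0 (0.69 in AKR1C1, 0.58 in NQO1), and the 2 other pairs lie nearer to 0 in every gene except UGDH, where Palmul-tang minus Sagunja-tang gave 0.21.

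Rehmanniae Radix Preparata, with 1 library a dose and no test, had 149.1, 153.3 and 245.5 CPM of NQO1 at the low, medium and high dose, above the vehicle libraries at each. AKR1C1 had 22.94, 22.6 and 31.29 CPM and AKR1C3 8.034, 9.762 and 14.28 CPM. Of the 10 members, 6 lay above all 3 vehicle libraries and 2 below them at the low dose, 4 above and 4 below at the medium dose, and 7 above and 2 below at the high dose. The share of all genes that lay so was not counted, so these counts cannot be set against it.

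Genes of the same pathway came from lists chosen with earlier results of these data known. At the high dose 32.6% of all genes were called higher and 35.6% lower with Astragali Radix, and 11.2% and 11.9% with Sibjeondaebo-tang, which became 20.6% and 17.8% without the 2 libraries that stood apart. Of 24 measured NRF2 targets outside the 10 members, 22 rose and 1 fell at the high dose of Astragali Radix against the vehicle, 23 rose with Sibjeondaebo-tang, 20 with Palmul-tang, 18 with Samul-tang, 19 with Sagunja-tang and 10 with Cinnamomi Cortex, where 1 fell. With the last 4 extracts 10%, 9.37%, 11.2% and 7.7% of all genes were called higher. Their median log2 changes were 1.76, 0.77, 0.52, 0.35, 0.47 and 0.21 in that order. HMOX1, heme oxygenase, rose by 6.24 ± 0.11 with Astragali Radix and 2.82 ± 0.10 with Sibjeondaebo-tang, FTH1 and FTL (ferritin chains) by 2.76 and 2.98 with Astragali Radix, and SRXN1 (sulfiredoxin) by 3.49. Dose trends upward were called in 21 of 24 with Astragali Radix (31.3% of all genes), 21 with Sibjeondaebo-tang (10.6%), 17 with Palmul-tang (1.92%), 14 with Samul-tang (0.747%), 18 with Sagunja-tang (2.06%) and 5 with Cinnamomi Cortex (0.243%), and in 10 with Cinnamomi Cortex without the 2 libraries that stood apart (1.65%). Among 16 NRF2 pathway regulators, 12 rose and 2 fell with Astragali Radix at the high dose and 5 and 2 with Sibjeondaebo-tang, where 9 and 5 were called without the 2 libraries. SQSTM1, which binds KEAP1, rose by 2.69 and 1.16 with these extracts, the NRF2 partner MAFG by 2.55 and 0.17, KEAP1 by 1.20 and 0.34, and RBX1, a subunit of the ubiquitin ligase that uses KEAP1, by 0.25 and 0.35. NFE2L2, the NRF2 gene itself, rose by 1.22 ± 0.13 with Astragali Radix, and its change of -0.21 ± 0.13 with Sibjeondaebo-tang was not called.

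Other oxidoreductases were called in both directions. Of 31 further aldo-keto, carbonyl, quinone and epoxide enzymes, 14 rose and 10 fell at the high dose of Astragali Radix (32.6% and 35.6% of all genes), with a median of 0.15, and 10 rose and 3 fell with Sibjeondaebo-tang (11.2% and 11.9%), with a median of 0.13. Without the 2 libraries that stood apart the Sibjeondaebo-tang counts were 16 and 4. AKR1B10, a retinal and lipid aldehyde reductase close to AKR1B1, rose by 1.26 ± 0.13 and 1.62 ± 0.12 with these extracts, and DHRS7 by 1.38 and 0.50. DHRS3, which reduces retinal, had log2 changes of -1.496 and -1.145 and fell with both. ALDH3A2, fatty aldehyde dehydrogenase, fell by 0.12 with Astragali Radix and rose by 0.98 with Sibjeondaebo-tang.

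Of 22 measured genes of glucuronidation and glutathione conjugation, 10 rose and 9 fell with Astragali Radix at the high dose (32.6% and 35.6% of all genes), and 5 rose with Sibjeondaebo-tang (11.2%), or 11 rose and 2 fell without the 2 libraries that stood apart. GSTO1, a glutathione transferase, rose by 1.88 and 0.61 and SLC35D2, a nucleotide sugar transporter, by 0.56 and 0.41. GSTP1 rose by 0.56 with Astragali Radix and had 0.22, not called, with Sibjeondaebo-tang. GSTM4, another transferase, fell by 0.55 with Astragali Radix and rose by 0.48 with Sibjeondaebo-tang. The aryl hydrocarbon receptor is another known activator of NQO1, and in a list of 9 measured genes of that receptor, its partners and targets 4 rose and 2 fell with Astragali Radix (32.6% and 35.6% of all genes) and 3 rose with Sibjeondaebo-tang (5 and 2 without the 2 libraries). The list also holds NFE2L2, given above, which rose with Astragali Radix. CYP1B1, a classic target of that receptor, fell by 3.77 ± 0.07 with Astragali Radix and rose by 0.51 ± 0.06 with Sibjeondaebo-tang, AHRR, its repressor, fell by 2.21 with Astragali Radix, and TIPARP rose by 0.47. Of 15 genes of prostaglandin and steroid handling 5 rose and 5 fell with Astragali Radix, near the 32.6% and 35.6% of all genes, and 6 rose and 3 fell with Sibjeondaebo-tang (11.2% and 11.9%). SLCO2A1, the prostaglandin transporter, had -0.60 and -0.53 with these extracts and fell with both, STS (steroid sulfatase) fell by 0.36 with Sibjeondaebo-tang, HSD17B4 rose by 0.34 with it, and LTA4H fell by 0.16 with Astragali Radix and rose by 0.14 with Sibjeondaebo-tang.

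Likeness of pattern was measured as the Pearson correlation of group means of log2 CPM, over all 19 groups of 3 libraries and over the 16 groups outside Astragali Radix, among 11207 genes of at least 5 CPM. Groups share libraries of the same extracts and normalisation, and the values are descriptions. Among genes outside the 10 members, closest to NQO1 were PIR (pirin, an iron-binding protein) with 0.945 and 0.958, MGST1 (a microsomal glutathione transferase) with 0.936 and 0.952, AKR1B10 with 0.915 and 0.936, BEST1 with 0.91 and 0.982, DNPEP with 0.897 and 0.909, TRPM4 with 0.891 and 0.889, FTH1 with 0.886 and 0.943, and SLC7A11, the cystine transporter, with 0.871 and 0.944. BEST1 overlaps FTH1 on the opposite strand. Correlated over the 57 single libraries instead, DNPEP (0.745) ranked 67 and TRPM4 (0.724) ranked 94 among genes outside the members. The others named ranked from 1 (PIR) to 12 (SLC7A11). Outside the members, closest to AKR1C1 were GCLM, a subunit of glutathione synthesis (0.981 and 0.977), GLA (0.976 and 0.985), BEST1 (0.969 and 0.979), EMC3 (0.99 and 0.966) and ME1, an NADPH-forming enzyme (0.977 and 0.966). Over single libraries the genes named for AKR1C1 ranked from 7.5 (EMC3) to 72.5 (ME1). Within the members, AKR1C1 and AKR1C2 correlated at 0.985 and 0.973, and NQO1 and AKR1B1 at 0.911 and 0.977. NQO1 and AKR1C1 correlated at 0.812 over 19 groups and 0.978 over the 16 outside Astragali Radix, and AKR1C1 and UGDH at 0.942 and 0.743. The members least like each other over 19 groups were CBR1 and UGDH, at 0.447.

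Promoter windows of RefSeq on GRCh38.p14, 250 bases before to 50 after a start site, were found for 9 of the 10 members (13 windows, with none for CBR3). The core of the antioxidant response element, TGACNNNGC on either strand, occurred in windows of 2 members, EPHX1 and CBR1, and in 13.347% of 35116 windows of all genes. These stretches are shown because they hold that core, in capitals, written on the plus strand.
EPHX1 chr1:225825256-225825304: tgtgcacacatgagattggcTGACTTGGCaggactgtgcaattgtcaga
CBR1 chr21:36069845-36069893: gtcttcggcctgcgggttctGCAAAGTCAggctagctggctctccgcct
In EPHX1 it began at position -78 from the start site on the gene strand, in 1 of 3 windows, and in CBR1 at -159 on the opposite strand. The longer form, the same core followed by an A, was present at both and in 3.184% of all windows. GCGTG, the core that the aryl hydrocarbon receptor binds, occurred on either strand in windows of 5 members (NQO1, AKR1B1, CBR1, EPHX1 and UGDH) and in 36.542% of all windows. A match of letters is a description and names no site of binding, and its absence from the other windows covers only these bases.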

How the data were processed

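RNA from SW1783 cells was read as 100-base pairs on an MGIseq instrument after a directional library kit, per the labels. The authors deposited expected counts per gene (RSEM), and per the submitters' processing notes FastQC 0.11.9, Trim Galore 0.6.5, STAR 2.7.3a, RSEM 1.3.3 and hg38 were used; the annotation release and the strand setting are not given in the sources used here. Of 279 columns in the table, 60 were used and 219 were not. Expected counts were whole in 90.8% of values (tolerance 1e-09) and were rounded. Symbols were matched to Ensembl IDs through a names table (56558 genes named), and positions come from GENCODE 29 on GRCh38.

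In R 4.3.3, edgeR 4.0.16 fitted the 57 libraries of the 19 groups of 3 with TMM scaling, filterByExpr and its quasi-likelihood F test, and p-values were adjusted by Benjamini-Hochberg over 17676 genes in each of 46 comparisons. CPM were TMM-scaled, and a prior count of 2 entered log2 CPM. The sum of the AKR1C genes replaced their 3 rows in a separate fit. Scripts were tested on simulated data. DESeq2 1.42.0, other scaling, filters, sample sets, length and GC trends, a fold minimum, a replicate term and the loss of each library were tried.

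Members, lists and the libraries called apart were chosen with earlier results of these data known. From each list the text names at most 4 genes of at least 5 mean CPM with the smallest adjusted p in the dose trend of Sibjeondaebo-tang, and HMOX1. NFE2L2 stands in the list of receptor genes by that rule. For likeness it names, outside the members, the 8 genes for NQO1 and the 5 for AKR1C1 whose smaller correlation of the 2 was highest. Rehmanniae Radix Preparata libraries entered no test.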

Additional observations from a re-analysis of the deposited data

Results flagged for a closer look

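The dose trend differed between extracts in several members by a test of the difference itself, in log2 per 5-fold step of dose. Sibjeondaebo-tang minus Palmul-tang gave 0.319 for NQO1 and 0.317 for AKR1C1. Sibjeondaebo-tang minus Cinnamomi Cortex gave 0.696 for AKR1C1, 0.583 for NQO1, 0.457 for AKR1C3, 0.444 for AKR1C2, 0.264 for AKR1B1, 0.219 for CBR1, 0.197 for PTGR1 and 0.158 for EPHX1, all adjusted over all genes by edgeR.

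The single library of Rehmanniae Radix Preparata at the high dose, which entered no test, lay above all 3 vehicle libraries in 7 members. The share of all genes in which it did so was not counted. It had 245.5 CPM of NQO1, 277.9 of AKR1B1, 31.29 of AKR1C1, 9.997 of AKR1C2, 14.28 of AKR1C3, 6.654 of CBR3 and 96.11 CPM of PTGR1.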

How the results depend on the processing

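Of the 460 log2 changes of single members, 458 kept their direction and side of the threshold with DESeq2's size factors in edgeR, and no count of called members moved by over 1.5 times. With DESeq2 441 did and 19 gained a call. Over 3060 results of single members from fits that each left out 1 library, 2924 did, 113 lost a call, 23 gained one and none reversed. No pairing of extract libraries with the vehicle by replicate number was seen: of 54 pairs of an extract library and the vehicle of the same number, 0 had a correlation above 0.1. Over all pairs of libraries from different groups the median correlation was 0.009 for the same number and -0.005 for other numbers. Pairs within a label code were not examined apart, so pairing there was not tested. With a replicate block 453 stayed, 7 gained a call and 0 lost one, and the block gave 1 member called in Palmul-tang minus Samul-tang at the high dose and 1 in the trend difference of Sagunja-tang and Samul-tang. Causes of the changes below were not tested, except that a fold minimum and fewer libraries make calls differ by their construction. Shares of all genes called are given above for the fit without the 2 libraries that stood apart. For the other settings they are not given, so those counts cannot be set against all genes.

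Leaving out 1 library gave 3 to 6 members called at the low dose of Cinnamomi Cortex, 2 to 4 at that of Sagunja-tang, 2 to 3 at that of Palmul-tang, 2 to 7 in Sibjeondaebo-tang minus Palmul-tang at the high dose, and 0 to 1 in Palmul-tang minus Sagunja-tang, Palmul-tang minus Samul-tang and Sagunja-tang minus Samul-tang there and in the trend difference of Sagunja-tang and Samul-tang.

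DESeq2 called 3 members in the Cinnamomi Cortex trend, 1 in its upper step, 1 in Palmul-tang minus Samul-tang, 1 in the trend difference of Sagunja-tang and Samul-tang and 4 in that of Sibjeondaebo-tang and Palmul-tang, and the AKR1C sum in the Cinnamomi Cortex trend (0.163). Without a filter on low counts that sum was called too (0.16), with 2 members in the same trend and 1 in its upper step. With length and GC splines the lower step of Astragali Radix had 4 members called, Palmul-tang minus Sagunja-tang 0 and the trend difference of Sibjeondaebo-tang and Palmul-tang 5.

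With a minimum of 1.5-fold, 99 member calls were lost. Against the vehicle at the low dose 1 member stayed called with Cinnamomi Cortex, Palmul-tang, Sagunja-tang and Samul-tang and 0 with Sibjeondaebo-tang. At the medium dose the counts were 5 with Astragali Radix, 3 with Sibjeondaebo-tang and 1 with Cinnamomi Cortex, Palmul-tang, Sagunja-tang and Samul-tang, and at the high dose 5 with Sibjeondaebo-tang, 4 with Palmul-tang and 3 with Cinnamomi Cortex. Trends had 6 with Sibjeondaebo-tang, 3 with Palmul-tang, 3 with Sagunja-tang and 0 with Cinnamomi Cortex. Upper steps had 5 with Astragali Radix, 4 with Sibjeondaebo-tang and 2 with Sagunja-tang, and lower steps 2 with Astragali Radix and 0 with Sibjeondaebo-tang. Pairs had 4 in Sibjeondaebo-tang minus Cinnamomi Cortex, 2 in Sibjeondaebo-tang minus Palmul-tang, 0 in Palmul-tang minus Sagunja-tang and Sagunja-tang minus Samul-tang, and 4 in the trend difference of Sibjeondaebo-tang and Cinnamomi Cortex. The AKR1C sum lost its call at the low dose of Cinnamomi Cortex (0.542), Palmul-tang (0.453), Sagunja-tang (0.376), Samul-tang (0.435) and Sibjeondaebo-tang (0.432) and at the medium dose of Cinnamomi Cortex (0.582), Palmul-tang (0.467) and Sagunja-tang (0.517).

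In fits of only the groups compared, the low dose of Astragali Radix and its lower step had 0 members called, and the AKR1C sum lost its call there (0.94 and 0.694). The low doses had 8 with Cinnamomi Cortex, 7 with Palmul-tang, Sagunja-tang and Samul-tang and 6 with Sibjeondaebo-tang, the medium doses 8 with Palmul-tang and Sagunja-tang, and the high doses 8 with Cinnamomi Cortex and Samul-tang. Trends had 9 with Palmul-tang, 8 with Sagunja-tang and Samul-tang and 5 with Cinnamomi Cortex. Upper steps had 7 with Samul-tang and 4 with Cinnamomi Cortex, and the lower step of Sibjeondaebo-tang had 2. Pairs had 3 in Palmul-tang minus Sagunja-tang, 2 in Palmul-tang minus Samul-tang and 4 in Sagunja-tang minus Samul-tang, and trend differences 8 in Sibjeondaebo-tang against Palmul-tang, 2 in Sagunja-tang against Samul-tang and 1 in Palmul-tang against Sagunja-tang. The sum gained a call in the Cinnamomi Cortex trend (0.162) and upper step (0.284), the lower step of Sibjeondaebo-tang (0.191), Palmul-tang minus Sagunja-tang (0.261) and Sagunja-tang minus Samul-tang (-0.153).

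Without Astragali Radix low replicates 1 and 2, which leaves replicate 3 alone at that dose with the spread taken from the other groups, 91 member results gained a call, 3 lost one and 8 reversed. The low doses had 3 members called with Astragali Radix, 8 with Cinnamomi Cortex, Samul-tang and Palmul-tang, 7 with Sagunja-tang and 6 with Sibjeondaebo-tang, the medium doses 9 with Sagunja-tang, 8 with Samul-tang and 7 with Palmul-tang, and the high dose of Samul-tang 8. Trends had 9 with Palmul-tang, 8 with Sagunja-tang and Samul-tang and 5 with Cinnamomi Cortex. Upper steps had 7 with Samul-tang and 4 with Cinnamomi Cortex, and lower steps 2 with Sibjeondaebo-tang and 1 with Sagunja-tang. Pairs had 2 in Palmul-tang minus Sagunja-tang and in Palmul-tang minus Samul-tang and 3 in Sagunja-tang minus Samul-tang, and trend differences 9 in Sibjeondaebo-tang against Palmul-tang, 2 in Sagunja-tang against Samul-tang and 1 in Palmul-tang against Sagunja-tang. The sum gained a call in the Cinnamomi Cortex trend (0.162), its upper step (0.279) and Palmul-tang minus Sagunja-tang (0.271). The reversed values with Astragali Radix were CBR1 (-0.13), CBR3 (-0.002) and PTGR1 (-0.041) at the low dose, CBR1 (0.14) and CBR3 (0.39) in the trend, and AKR1B1 (0.243), CBR1 (0.376) and CBR3 (0.366) in the lower step.

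Depth limits CBR3, AKR1C2 and AKR1C3 most, since they had the fewest reads in vehicle cells. With 3 libraries per group, every p rests on a spread pooled over all groups of its fit. All 18 comparisons with the vehicle share its 3 libraries, so they are not independent of each other.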
